A study of Mus musculus with 16 samples.

Results

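Lung endothelial cells that carried an interferon response were taken from a deposited table of single-cell counts as the cells with at least 1 unique molecular identifier (UMI, which marks 1 captured RNA molecule) in at least 4 of 8 interferon-induced genes. The 8 gate genes were Ifit1, Ifit3, Ifit3b, Isg15, Irf7, Usp18, Oasl2 and Cmpk2. By that rule 660 of 9036 cells (7.30%) were interferon-state cells, and the remaining 8376 are called other cells. The cells came from the lungs of female C57BL/6N mice, by fluorescence-activated sorting of endothelial cells, and were read with the 10x Genomics Chromium 3′ kit, version 2. Wild-type mice gave the cells of d0, mice with a primary tumour those of d15, mice after resection of that tumour those of d22, and mice with metastases those of d36. The tumour came from Lewis lung carcinoma cells, a mouse lung cancer line, placed under the skin. The labels list 4 libraries for each day, but the cell names carry only the day. Each day is therefore 1 pooled sample, no spread between mice was measured, and no p-value was computed.

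Type I interferons are secreted proteins that bind the receptor pair Ifnar1 and Ifnar2. The kinases Jak1 and Tyk2 then set off a transcription complex that includes Stat2 and Irf9 and binds a DNA element in the promoters of interferon-induced genes, the interferon-stimulated response element. The induced proteins block viral RNA and protein synthesis, sense foreign nucleic acid, present peptides on MHC class I and, through Usp18 and Socs1, damp the signal. Endothelial cells line the vessel wall and meet cytokines carried in blood. In the lung they form arteries, veins, lymphatics and 2 kinds of capillary cell, general capillary cells and the wide aerocytes that lie against the air spaces.

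Interferon-state cells were found at every day, and their share of all cells moved with sequencing depth. They were 247 of 2671 cells at d0 (9.25%, 95% interval 8.18 to 10.4), 66 of 1507 at d15 (4.38%, 3.40 to 5.54), 282 of 3230 at d22 (8.73%, 7.78 to 9.76) and 65 of 1628 at d36 (3.99%, 3.09 to 5.06). Intervals are exact (Clopper-Pearson) and, here and throughout, cover counting error only. The days with the lower shares were also the shallower ones, with a median of 3950 UMIs per other cell at d15 and 3264 at d36, against 7436 at d0 and 7488 at d22 in the deeper pair. With every cell thinned to 2500 UMIs the shares became 5.62% (d0), 4.49% (d15), 4.80% (d22) and 4.20% (d36), and all 4 intervals overlapped. Shallower cells had to be dropped for this, 460 of them at d15 and 604 at d36. With every cell kept and thinned to 1200 UMIs they were 2.66%, 1.53%, 2.20% and 1.66% at d0, d15, d22 and d36. All 4 intervals overlapped again, with 2.08 to 3.34 at d0. The d0 share itself lay above the intervals of d15 (0.970 to 2.28) and d36 (1.10 to 2.40). At 2500 UMIs it lay just above the upper limits of d22 (5.59) and d36 (5.61). The difference between d0 and d22 on the one side and d15 and d36 on the other was thus smaller at equal depth, and whether any difference remained could not be told from 1 sample per day.

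**Figure D1:**
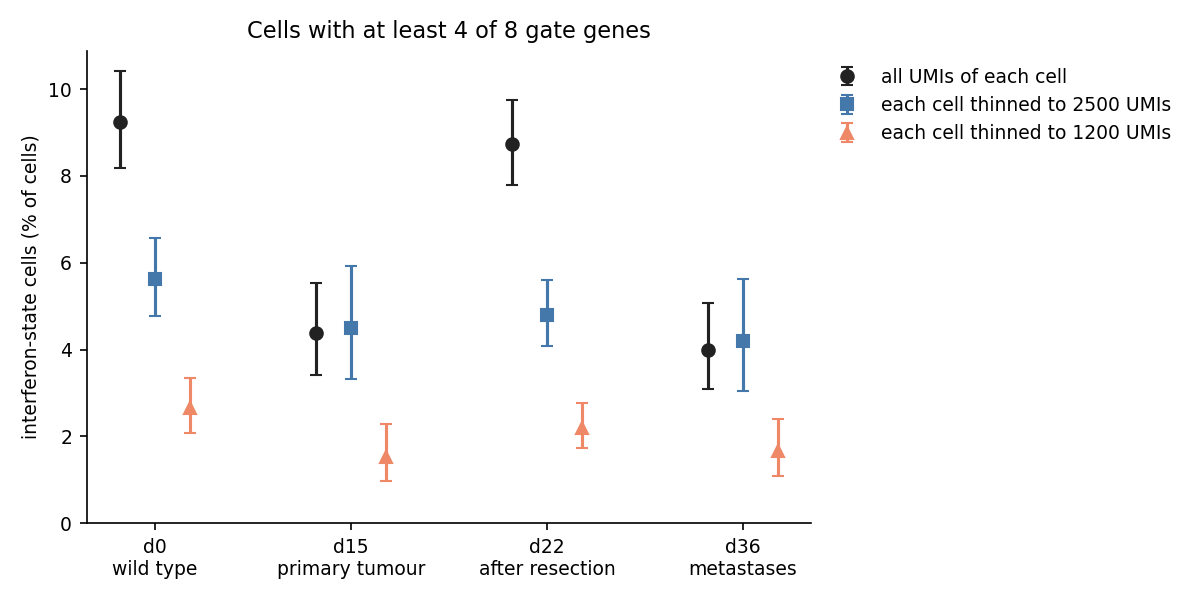
Share of interferon-state cells (% of the cells of a day, vertical axis) at each day, with all UMIs and with each cell thinned to 2500 or 1200 UMIs; bars are exact 95% binomial intervals. With all UMIs the shares were 9.25% at d0 and 8.73% at d22 against 4.38% at d15 and 3.99% at d36, while at 2500 UMIs they ran from 4.20% to 5.62%.

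The gate genes encode well-known parts of the antiviral response. Ifit1, Ifit3 and Ifit3b belong to a family of RNA-binding proteins, Isg15 is a ubiquitin-like tag, and Usp18 removes that tag and blocks receptor signalling. Irf7 is a transcription factor that drives interferon genes, Oasl2 belongs to the oligoadenylate synthetase family, and Cmpk2 is a mitochondrial nucleotide kinase. Their values chose the cells and are given as a description. Levels are in CPM, counts per 1000000 UMIs of the summed cells of a day, and a 3′ count is not scaled by gene length. Ifit3 was at 718, 934, 631 and 751 CPM in interferon-state cells, against 48.2, 43.2, 48.8 and 43.9 CPM in other cells, at d0, d15, d22 and d36. Isg15 was at 864, 1233, 902 and 1058 CPM in interferon-state cells, against 145, 115, 157 and 174 CPM in other cells. Ifit1 was at 554, 822, 428 and 751 CPM in interferon-state cells, against 37.4, 60.6, 35.4 and 55.3 CPM in other cells. The 2 sets were far apart at each day for all of these genes, as the rule made likely. Averaged over the days, the log2 ratio of (CPM + 5) was largest for Ifit3 (3.89 ± 0.31, SD over 4 days), Ifit3b (3.80 ± 0.38) and Ifit1 (3.61 ± 0.13) and smallest for Oasl2 (2.28 ± 0.11). Usp18 (2.82), Irf7 (2.77), Isg15 (2.74) and Cmpk2 (2.42) lay between.

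Each gate gene was also read in cells chosen by the other 7 alone, again with at least 4 detected, so that its own counts did not choose them. The log2 ratio was then 3.56 for Ifit3, 3.38 for Ifit3b, 3.11 for Ifit1, 2.47 for Isg15, 2.23 for both Irf7 and Usp18, 1.93 for Cmpk2 and 1.88 for Oasl2. The most widely detected gate gene was Isg15, with a UMI in 85.2% of interferon-state cells and 20.99% of other cells. The least was Cmpk2, with a UMI in 32.4% of interferon-state cells and 4.81% of other cells. No cell type in the table can be taken to lack these genes, so a background share from free RNA was not set. The gate genes are not all independent markers, since Ifit3 and Ifit3b are near-identical copies. Their transcripts matched at 98.0% of 1697 aligned bases. Over the last 500 bases of each, nearer the 3′ end that was read, 197 bases aligned and 94.9% of those matched. Reads between the 2 genes may be split, and the Ifit3b level is uncertain. Ifit3 (chr19:34583531-34588731), Ifit3b (chr19:34607970-34613401) and Ifit1 (chr19:34640871-34650009, GRCm38, all on the plus strand) lie beside each other.

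Among the cells at the edge of the rule, 542 had exactly 3 gate genes and 294 had exactly 4. At d0 the summed gate genes were at 1319 CPM in the 221 cells with 3 and 2111 CPM in the 98 cells with 4. At d36 they were at 2503 CPM in the 53 cells with 3 and 3304 CPM in the 36 cells with 4. Only 32 cells had all 8, and 4262 cells had none.

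The promoters of 4 gate genes hold the 10-base core of the interferon-stimulated response element, here GAAA, any 2 bases, then GAAA, searched on both strands from 250 bases before to 50 bases after the gene start in the promoter windows of RefSeq (GRCm38.p6). They are shown because the element is where the activated complex with Stat2 and Irf9 binds. Capitals mark the matches, which read TTTC, 2 bases, TTTC where the core lies on the opposite strand. The Ifit genes share a pair of matches, and Isg15 has 3 that overlap.
Ifit1 (chr19:34640639-34640938, plus strand): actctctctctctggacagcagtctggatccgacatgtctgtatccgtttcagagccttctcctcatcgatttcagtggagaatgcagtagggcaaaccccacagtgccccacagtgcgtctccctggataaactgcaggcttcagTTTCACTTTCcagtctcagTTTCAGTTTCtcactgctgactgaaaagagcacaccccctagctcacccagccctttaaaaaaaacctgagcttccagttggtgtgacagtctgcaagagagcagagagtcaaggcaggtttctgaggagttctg
Ifit3 (chr19:34583279-34583578, plus strand): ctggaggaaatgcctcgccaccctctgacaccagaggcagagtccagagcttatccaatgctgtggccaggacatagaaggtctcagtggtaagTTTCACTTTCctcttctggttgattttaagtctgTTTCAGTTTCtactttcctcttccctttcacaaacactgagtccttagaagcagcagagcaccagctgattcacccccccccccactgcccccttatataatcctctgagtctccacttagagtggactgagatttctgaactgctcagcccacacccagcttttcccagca
Ifit3b (chr19:34607707-34608006, plus strand): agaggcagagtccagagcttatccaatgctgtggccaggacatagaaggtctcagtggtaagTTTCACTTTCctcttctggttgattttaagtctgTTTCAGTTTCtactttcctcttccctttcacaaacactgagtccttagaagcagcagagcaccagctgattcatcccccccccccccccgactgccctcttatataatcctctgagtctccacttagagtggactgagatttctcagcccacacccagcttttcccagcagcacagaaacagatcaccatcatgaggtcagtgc
Isg15 (chr4:156200769-156201068, minus strand): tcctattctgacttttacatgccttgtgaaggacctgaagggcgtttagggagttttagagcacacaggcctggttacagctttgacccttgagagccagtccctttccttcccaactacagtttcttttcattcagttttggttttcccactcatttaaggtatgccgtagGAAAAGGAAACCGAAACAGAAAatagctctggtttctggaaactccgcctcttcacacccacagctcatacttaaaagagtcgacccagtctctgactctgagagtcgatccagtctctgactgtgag
The first match began 104 bases before the start in Ifit1, 156 in Ifit3, 188 in Ifit3b and 78 in Isg15. The windows of Irf7, Oasl2 and Cmpk2 held no match of these letters, and Usp18 has no entry there.

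Outside the gate, the cells differed from other cells mainly in further interferon-induced genes. A gene counted as measured with a mean of at least 50 CPM in either set of cells, and met the size rule when it lay on the same side at all 4 days with a mean ratio of at least 1.5. Of 3627 measured genes, 59 were higher in interferon-state cells (1.63%) and 25 were lower (0.689%). The lower count was unstable, at 75 without d0, 68 without d22, 62 with thinned cells and 86 with at least 5 gate genes. These counts describe the contrast that chose the cells and carry no test. Of the 59 higher genes, 50 belonged to 8 lists of interferon-related genes, which had 94 measured members. None of the 25 lower genes did, which is near the share of 94 in 3627 over all measured genes. The lists were chosen with earlier results of these data known.

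The highest gene outside the gate was Rsad2, which makes a chain-terminating nucleotide that stops viral RNA synthesis. It was at 51.5, 40.5, 62.5 and 98.8 CPM in interferon-state cells, against 6.20, 3.99, 6.43 and 6.23 CPM in other cells, at d0, d15, d22 and d36. The 2 sets did not overlap, and the log2 ratio was 2.61 ± 0.41 (SD over 4 days). A Rsad2 UMI was seen in 12.1% of interferon-state cells and 1.24% of other cells. Rsad2 (chr12:26442746-26456452, minus strand) is the neighbour of the gate gene Cmpk2 (chr12:26469204-26479837, plus strand), and the promoter windows of the pair differed in the motif. The Rsad2 window, shown because it holds 1 match 120 bases before the start, reads as follows.
Rsad2 (chr12:26456403-26456702, minus strand): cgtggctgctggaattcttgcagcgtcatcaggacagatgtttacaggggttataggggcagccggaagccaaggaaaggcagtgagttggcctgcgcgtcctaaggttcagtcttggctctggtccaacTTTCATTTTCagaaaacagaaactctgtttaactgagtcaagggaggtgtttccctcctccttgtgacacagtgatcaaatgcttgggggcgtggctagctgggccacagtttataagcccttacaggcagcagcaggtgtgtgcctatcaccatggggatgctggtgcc
Rtp4, a receptor chaperone induced by interferon, was the most abundant of the strongly different genes. It was at 660, 774, 653 and 654 CPM in interferon-state cells, against 206, 194, 210 and 199 CPM in other cells, a log2 ratio of 1.73 ± 0.16. Slfn2, a Schlafen protein needed for the resting state of T cells, was at 218, 277, 187 and 178 CPM in interferon-state cells, against 56.8, 54.0, 51.0 and 52.9 CPM in other cells (1.89 ± 0.26). For both genes the lowest day of the interferon-state cells lay far above the highest day of the other cells.

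**Figure D2:**
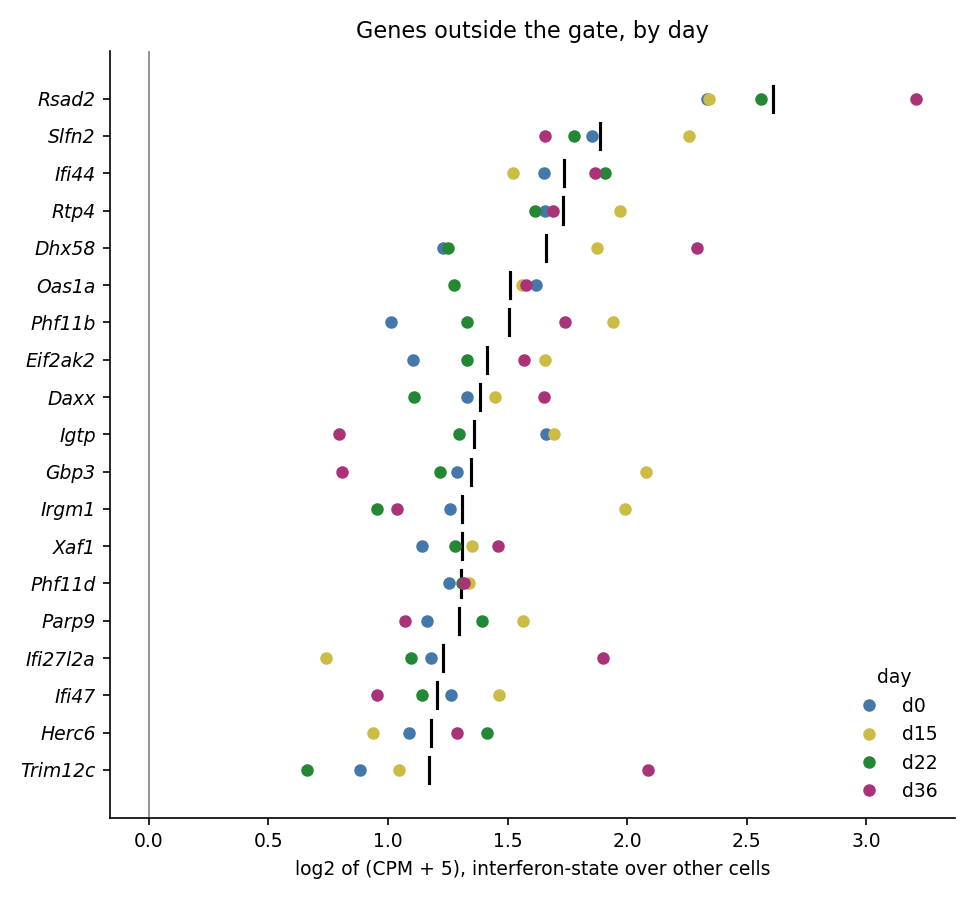
Log2 ratio of (CPM + 5), interferon-state over other cells (horizontal axis), for the highest of the named genes outside the gate (predicted genes left out); points are the 4 days and black lines their mean. Every point lies above 0, and Rsad2 leads with a mean of 2.61.

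The antiviral effectors were the largest group. Of 37 measured members, 24 were higher, none was lower and the median log2 ratio was 0.74, against −0.01 over all measured genes. Ifi44 (1.74 ± 0.18), Phf11b (1.51 ± 0.41), Oas1a (1.51 ± 0.16), which makes the messenger that activates an RNA-cutting enzyme, and Eif2ak2 (1.42 ± 0.25), the kinase that halts translation on double-stranded RNA, were among them. Xaf1 (1.31 ± 0.13), Phf11d (1.31 ± 0.04) and Herc6 (1.18 ± 0.21), the mouse enzyme that attaches Isg15, were also past the size rule. Phf11d had the narrowest spread, at 290, 371, 346 and 314 CPM in interferon-state cells, against 119, 143, 136 and 123 CPM in other cells.

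Members of the same list that are abundant in all endothelial cells differed less. Bst2, or tetherin, which holds budding virus at the cell surface, was at 1045, 1237, 1368 and 1346 CPM in interferon-state cells, against 821, 824, 964 and 713 CPM in other cells (0.59 ± 0.24). Ifitm3, which blocks viral entry, was at 5065, 6667, 5262 and 5804 CPM in interferon-state cells, against 3931, 4401, 4086 and 4344 CPM in other cells. Its log2 ratio of 0.44 ± 0.11 did not reach the size rule, and nor did that of Ly6e (0.29 ± 0.06). Both sets had a UMI of Ifitm3 in nearly every cell.

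The genes of Isg15 conjugation and ADP-ribosylation had 8 of 9 measured members higher, with a median log2 ratio of 0.84. Parp9 (1.30 ± 0.22) and Parp12 (1.12 ± 0.44) belong to the enzymes that add ADP-ribose, and Ube2l6 (0.80 ± 0.20) is the conjugating enzyme for Isg15. Its activating enzyme Uba7 was at 0.21 ± 0.35 and was the member that did not pass. Among 4 measured sensors and adaptors 2 were higher. Dhx58, a helicase that tunes the sensing of viral RNA, was at 58.6, 72.9, 48.2 and 83.4 CPM in interferon-state cells, against 22.1, 16.3, 17.4 and 13.1 CPM in other cells (1.66 ± 0.52). Ifih1, the sensor of long double-stranded RNA, was at 0.79 ± 0.13, and Ddx58, the sensor of viral RNA ends, at 0.48 ± 0.39 did not pass.

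All 11 measured interferon-induced GTPases, which attack vacuoles that hold microbes, were higher, with a median of 1.06. Igtp was at 290, 237, 334 and 257 CPM in interferon-state cells, against 88.3, 69.8, 133 and 146 CPM in other cells (1.36 ± 0.42). Irgm1 was at 203, 215, 219 and 206 CPM in interferon-state cells, against 82.1, 50.3, 111 and 98.1 CPM in other cells (1.31 ± 0.47). In both genes the interferon-state cells kept a similar level at each day and the other cells varied more. Gbp3 (1.35 ± 0.53), Ifi47 (1.21 ± 0.21) and Iigp1 (1.16 ± 0.36) were also higher. Many of these GTPases respond to interferon gamma as well as to type I interferon.

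The 13 measured members of the receptor and JAK-STAT list had a median log2 ratio of −0.01. Stat2 and Irf9, which act together in the nucleus, were higher. Stat2 was at 77.2, 132, 74.5 and 85.6 CPM in interferon-state cells, against 37.0, 48.9, 33.2 and 53.4 CPM in other cells (1.00 ± 0.29), and the sets did not overlap. Irf9 was at 197, 245, 200 and 173 CPM in interferon-state cells, against 102, 107, 117 and 114 CPM in other cells (0.85 ± 0.25). The receptors upstream of them did not differ by the size rule. Ifnar2 was at 129, 172, 126 and 108 CPM in interferon-state cells, against 126, 162, 140 and 117 CPM in other cells (−0.04 ± 0.11), and the 2 ranges overlapped. Ifngr1, a chain of the interferon gamma receptor, was at −0.03 ± 0.16. Ifnar1 was in both sets near the lower limit of measurement, at 59.7, 10.1, 51.4 and 30.7 CPM in interferon-state cells, against 56.3, 33.0, 45.2 and 31.4 CPM in other cells, and the d15 value rests on 5 UMIs. Jak1 was at −0.12 ± 0.39 and Irf1, a transcription factor induced strongly by interferon gamma, at 0.10 ± 0.16. Of all 13 measured members of the receptor and JAK-STAT list, none was lower. None of 19 genes for interferons themselves had a UMI in interferon-state cells, which allows a level of up to 0.435 CPM for each (3 counts of 6901258 UMIs). In other cells Ifnz alone was seen, with 8 UMIs in 4 cells.

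**Figure D3:**
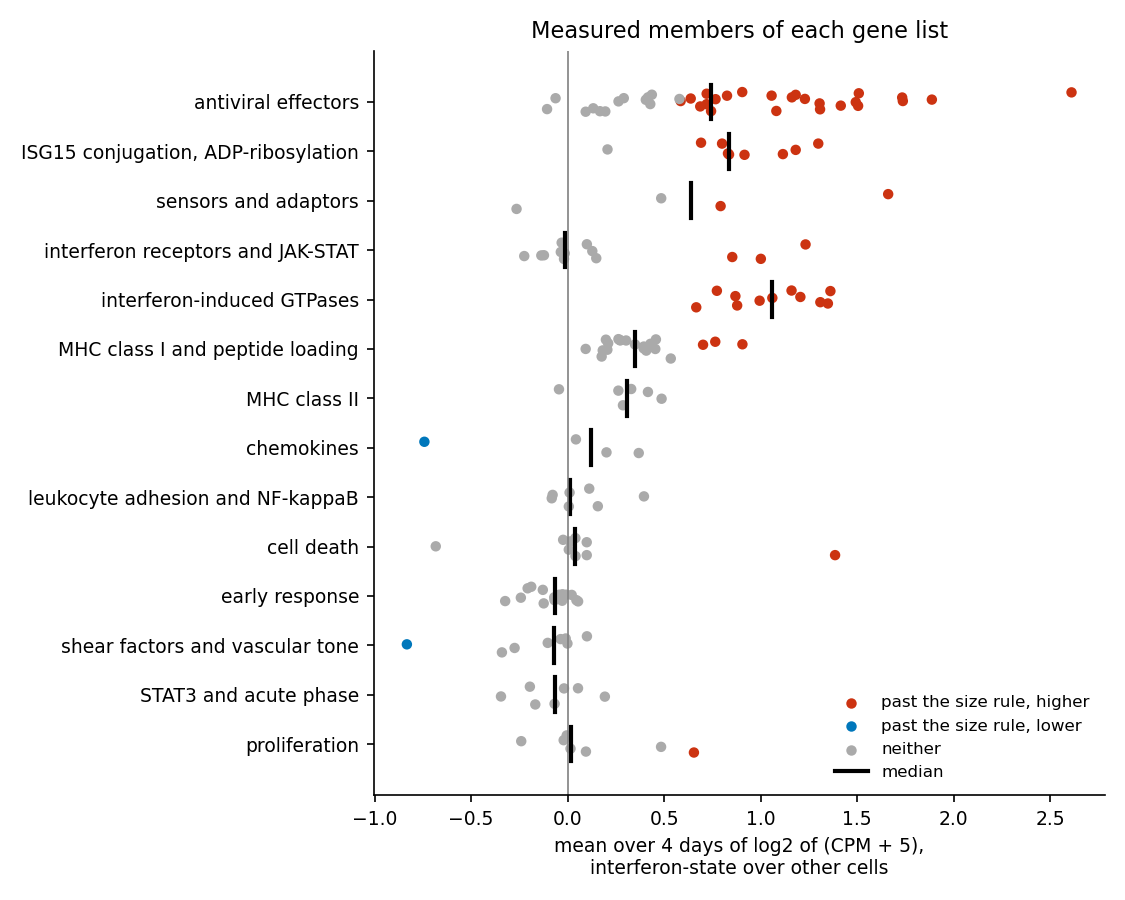
Mean over 4 days of the log2 ratio of (CPM + 5), interferon-state over other cells (horizontal axis), for every measured member of each gene list; red points pass the size rule as higher, blue as lower, and black lines are medians. The GTPases have their median at 1.06 and the antiviral effectors at 0.74, while the early response and NF-kappaB lists lie around 0.

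Antigen presentation on MHC class I was moderately higher. Of 21 measured members 19 were above 0 at all 4 days, as were 363 of all 3627 measured genes. Only Tap1, H2-T22 and Psmb8 passed the size rule, and the median was 0.35. Tap1, a subunit of the pump that carries peptides to MHC class I, was at 207, 263, 284 and 281 CPM in interferon-state cells, against 113, 108, 171 and 158 CPM in other cells (0.91 ± 0.23). Psmb8 (0.70 ± 0.27) is a subunit of the immunoproteasome and H2-T22 (0.77 ± 0.25) a non-classical class I molecule. B2m, the light chain of class I, was at 8431, 6572, 10600 and 7841 CPM in interferon-state cells, against 7389, 6084, 9493 and 6514 CPM in other cells (0.18 ± 0.07). The MHC class II list had none of 6 measured members past the size rule, but its median of 0.31 was close to that of class I. In that list 4 members were above 0 at all 4 days. Cd74, the invariant chain, was at 0.49 ± 0.20, with 1281, 448, 2638 and 887 CPM in interferon-state cells, against 940, 302, 2240 and 541 CPM in other cells.

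Few genes of the other inflammatory lists met the size rule, which 1.63% of all measured genes met as higher and 0.689% as lower. In lists this short, none passing is near those shares. In the list of leukocyte adhesion and NF-kappaB genes none of 7 measured members met the size rule, with a median of 0.01. Icam1, an adhesion molecule for leukocytes, was at 481, 379, 534 and 345 CPM in interferon-state cells, against 365, 418, 390 and 362 CPM in other cells, and was higher at d0 and d22 only. None of 15 early response genes passed (median −0.07), with Fosb at −0.32 ± 0.14 and Egr1 at −0.24 ± 0.12. Of the 15, 4 were below 0 at all 4 days, as were 363 of all 3627 measured genes. None of 7 STAT3 and acute-phase genes passed either (median −0.07). Of 7 measured proliferation genes only Mcm6 passed, at 0.65 ± 0.56, and of 9 cell death genes only Daxx, a regulator of apoptosis and chromatin that is induced by interferon, at 1.39 ± 0.23. Mcl1, an inhibitor of apoptosis, spread the most of that list (−0.68 ± 1.34), because it had 4 UMIs in the interferon-state cells of d36.

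The chemokines were mixed. Cxcl12, which holds leukocytes and progenitors, was at 213, 225, 243 and 222 CPM in interferon-state cells, against 312, 402, 404 and 413 CPM in other cells. It was lower at every day (−0.74 ± 0.15), and in the same direction Plat, the tissue plasminogen activator, was at −0.83 ± 0.33. Both are also genes of arterial cells, whose shares are given below. Cxcl12 also led, with Slc6a6, a cluster of the grouping given below. That cluster was 3.64% of interferon-state cells and 6.40% of other cells. The part of cell mixture in these differences was not tested. Cxcl10, an interferon-induced chemokine that attracts T cells, was below 50 CPM on average and so not measured by the rule. It had 186, 0, 322 and 8 UMIs in 10, 0, 7 and 1 interferon-state cells at d0, d15, d22 and d36. In all, 2.73% of interferon-state cells and 0.907% of other cells had a Cxcl10 UMI, so a few cells carried nearly all of it.

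The lowest ratios belonged to genes of lymphatic, red blood, epithelial, mesenchymal or arterial cells. Ccl21a, the chemokine of lymphatic vessels, was at 22.2, 6.08, 21.2 and 11.0 CPM in interferon-state cells, against 524, 563, 292 and 73.8 CPM in other cells (−3.94 ± 1.42). Sftpc, the surfactant protein of alveolar epithelium, was at 33.6, 16.2, 69.4 and 79.0 CPM in interferon-state cells, against 58.5, 244, 262 and 1235 CPM in other cells (−2.50 ± 1.49). A Sftpc UMI was seen in 25.6% of interferon-state cells and 22.6% of other cells, whose median depths are given below. Mgp, an arterial and mesenchymal matrix protein, was at −1.54 ± 1.07. Ankrd11 (−0.69 ± 0.68), Esf1 (−0.68 ± 0.75), Tulp4 (−0.67 ± 0.56), Arl4a (−0.63 ± 0.24) and Syne1 (−0.62 ± 0.71) were lower by less, and in all of these but Arl4a the SD over days was near or above the size of the mean.

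Of the 9 higher genes outside the interferon lists, Gm4955, Daxx, Trim12c, Zc3hav1, Ogfr and Pydc4 are in none of the vessel marker lists. Zc3hav1 (0.81 ± 0.17) binds viral RNA with CpG pairs and Trim12c (1.17 ± 0.63) belongs to an antiviral protein family, although the fixed lists do not hold them. Car8 (0.93 ± 0.47) and Prss23 (0.79 ± 0.48) are markers of venous cells, and Mcm6 is the proliferation gene named above. These 9 were singled out after their values were seen.

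Cells below the gate also differed in the response. The summed level of the 50 higher interferon genes outside the gate was read in cells by the number of gate genes detected. At d0 it was 4762 CPM in cells with none, 6915 with 3, 8670 with 4, 10011 with 5 and 14988 with 8. At d15 it was 4562 with none, 6877 with 2, 6340 with 3 and 10353 with 4. At d22 it was 5370 with none, 7994 with 3, 9130 with 4 and 20289 with 8, and at d36 4611 with none, 8576 with 3, 11129 with 4, 12920 with 5 and 11907 with 6. The order was therefore not the same at every step, with a lower value at d15 for 3 than for 2 genes and at d36 for 6 than for 5. The step between 3 and 4 was exceeded by a step further up at d0 and d22, while at d15 and d36 it was the largest between groups of at least 10 cells. Cells with more gate genes also had more UMIs, with a median of 6222 for none and 12845 for 8 at d0. CPM is scaled by that depth, and its part in the order was not tested. The 50 genes were taken because they differed in the same cells, so this order describes the gate and is no separate support.

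**Figure D4:**
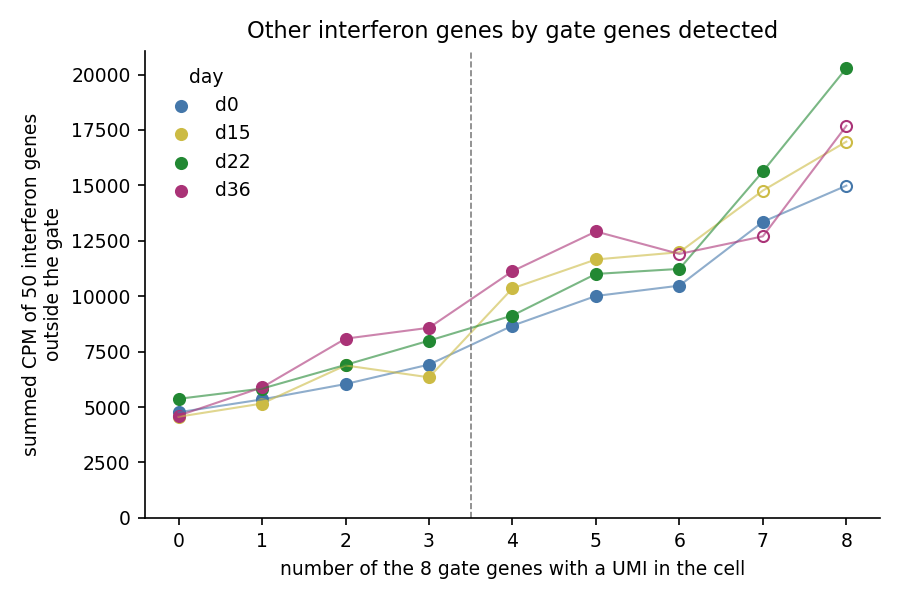
Summed CPM of the 50 interferon genes outside the gate (vertical axis) by the number of gate genes with a UMI in the cell (horizontal axis), for each day; open points hold fewer than 10 cells and the dashed line marks the rule. At d0 the level was 4762 CPM with none, 6915 with 3 and 8670 with 4.

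The promoter motif followed the same genes. Of the higher genes, 46 had a RefSeq promoter window, and 22 of these held this core (47.8%), against 111 of 2701 other measured genes (4.11%). None of 21 lower genes with an entry held it, too few genes to tell apart from the 4.11% of other measured genes. Among all 27025 genes with a window, 1079 held it (3.99%), and 3.44% of the 32851 windows did. Over the whole list of 24 interferon-induced GTPases, measured here or not, 12 of the 14 with an entry held it (85.7%). Of the higher GTPases with a window, Gbp2, Gbp3, Gbp7, Igtp, Irgm1 and Irgm2 held it, and Ifi47 and 9930111J21Rik2 did not. The Igtp window, shown as the leading member of that family, has its match 34 bases before the start.
Igtp (chr11:58199306-58199605, plus strand): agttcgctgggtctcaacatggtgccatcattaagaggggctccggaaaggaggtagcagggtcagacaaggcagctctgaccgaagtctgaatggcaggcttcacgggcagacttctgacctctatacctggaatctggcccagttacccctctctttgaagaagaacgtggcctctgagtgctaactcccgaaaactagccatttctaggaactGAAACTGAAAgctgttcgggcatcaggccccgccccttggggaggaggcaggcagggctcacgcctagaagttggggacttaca
None of 7 MHC class II genes held the motif, again too few to tell apart from the 3.99% of all genes. Some highly different genes did not hold it either, Slfn2, Ifi44 and Xaf1 among them, and a window without these letters says nothing of binding elsewhere.

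The cells were endothelial by their markers. Of 10 pan-endothelial genes none met the size rule and the median log2 ratio was 0.03. Pecam1 was at 1314, 1250, 1126 and 1383 CPM in interferon-state cells, against 1292, 1276, 1124 and 1159 CPM in other cells. Cdh5, the cadherin of endothelial junctions, was at 1048, 986, 912 and 951 CPM in interferon-state cells, against 1091, 1105, 935 and 1015 CPM in other cells. By a filter on endothelial and other markers 659 of the 660 passed, as did 8900 of all 9036 cells. Markers of leukocytes were low in interferon-state cells. The 6 pan-leukocyte genes summed to 12 UMIs in interferon-state cells, with Ptprc and Cd52 at 0, and to 558 in the far more numerous other cells. As CPM they were at 0.715, 2.025, 2.85 and 0 in interferon-state cells, against 6.44, 3.07, 9.32 and 26.9 in other cells. The 9 macrophage markers summed to 14.3, 34.4, 11.4 and 13.2 CPM in interferon-state cells, against 12.9, 30.8, 59.3 and 241 CPM in other cells, so they were not lower at d0 and d15. The 7 monocyte and neutrophil markers summed to 1.79, 12.2, 3.80 and 8.78 CPM in interferon-state cells, against 5.38, 5.98, 7.19 and 7.47 CPM in other cells. Of 5 markers of plasmacytoid dendritic cells, the chief makers of type I interferon, Siglech, Ccr9, Klk1 and Ly6d were at 0 in interferon-state cells and Cox6a2 held 5 UMIs, and 3 of the 5 were at 0 in other cells too. The part of any of these cells in the results was not tested. The 8 epithelial markers summed to 75.4, 38.5, 130 and 94.4 CPM in interferon-state cells, against 177, 574, 482 and 1608 CPM in other cells. The 7 red cell and platelet markers summed to 9.65, 28.35, 9.19 and 2.195 CPM in interferon-state cells (71 UMIs). In other cells they were at 874, 578, 96.1 and 124 CPM (24997 UMIs).

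Interferon-state cells had more UMIs and genes than other cells of the same day. The median UMI counts were 10187, 6715, 9347 and 6903 in interferon-state cells, against 7436, 3950, 7488 and 3264 in other cells, at d0, d15, d22 and d36. The median gene numbers were 1676, 1200, 1541 and 1230 in interferon-state cells, against 1327, 804, 1312 and 680 in other cells. A rule that needs 4 detected genes favours deep cells. Of the interferon-state cells 25, 12, 38 and 12 lay above the 95th percentile of UMIs of their day (10.1%, 18.2%, 13.5% and 18.5%), and no doublet caller was applied. Without those cells, an alternative chosen after seeing the data, 64 genes were higher, of which 54 were shared with the 59. A total of 36 barcodes occurred at more than 1 day, and 7 interferon-state cells carried such a barcode.

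Vessel markers placed the state in several kinds of endothelium. Cells were clustered without the gate and interferon genes, and a cluster was named only where at least 3 of its 10 leading genes were markers of a type, a rule set after the clusters had been seen. Interferon-state cells were 116 of 1440 aerocyte-like cells (8.06%, 6.70 to 9.58), 49 of 384 venous-like cells (12.8%, 9.59 to 16.5) and 23 of 432 arterial-like cells (5.32%, 3.40 to 7.88). None of 56 lymphatic-like cells was one (exact upper limit 6.38%, and 3 counts would be 5.36%), and 3 of 52 proliferating-like cells were (5.77%, 1.21 to 15.9). Only aerocyte, arterial, venous, lymphatic and proliferating names were open to the clusters, and general capillary was not. The other clusters are called by their leading genes. One led by Hey1 and Lpl held 70 among 968 cells (7.23%). Its leading genes held the general capillary markers Lpl, Plvap and Hilpda and the arterial markers Hey1 and Dll4. A cluster led by Pcp4l1 and Tmsb10 held 120 among 951 cells (12.6%) and one led by Cd74 and H2-DMa held 108 among 990 (10.9%). In the Pcp4l1 and Tmsb10 cluster and the Cd74 and H2-DMa cluster, the general capillary marker Gpihbp1 was at 1942 and 2186 CPM. Plvap was at 3945 and 3688 CPM. Other clusters had similar or higher levels, such as that led by Hey1 and Lpl (Gpihbp1 2591 CPM, Plvap 5512 CPM).

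The depth of the clusters differed, so the shares were repeated with each cell thinned to 2500 UMIs before the gate, also an alternative chosen after seeing the data. The share was then 8.50% (6.80 to 10.5) in the Pcp4l1 and Tmsb10 cluster, 7.30% (5.76 to 9.11) in the Cd74 and H2-DMa cluster, 6.49% (4.20 to 9.50) in venous-like, 3.64% (2.05 to 5.93) in arterial-like and 3.38% (2.47 to 4.51) in aerocyte-like cells. The interval of aerocyte-like cells did not overlap those of these first 2 clusters, and it overlapped that of venous-like cells. These values pool the days, and the order differed between them. At d0, d15, d22 and d36 the thinned share was 8.28%, 11.5%, 8.30% and 7.69% in the Pcp4l1 and Tmsb10 cluster. It was 9.21%, 5.88%, 6.22% and 14.6% in the Cd74 and H2-DMa cluster, and 2.83%, 2.07%, 4.79% and 1.29% in aerocyte-like cells. Aerocyte-like cells were thus at the share of all cells at d22 (4.80%) and below it at the other days, with overlapping intervals at each. A cluster of low depth led by Kit and Nckap5 was at 2.29% with all UMIs and 2.88% thinned. The aerocyte-like cells were the deepest of the large groups (median 10473 UMIs) and their share moved by the largest factor among them. They pool 2 clusters of unlike depth. One had 1065 cells with a median of 13389 UMIs and held 112 interferon-state cells. The other had 375 cells with a median of 2901 UMIs and held 4.

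**Figure D5:**
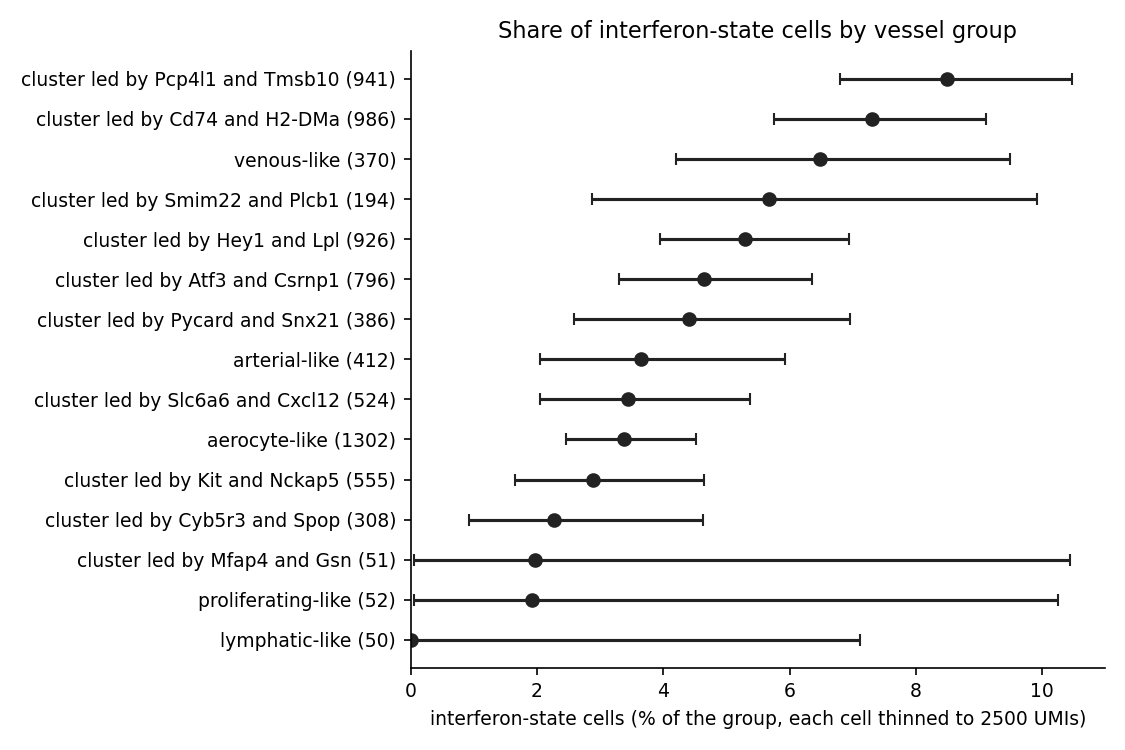
Share of interferon-state cells (% of the cells of a group, horizontal axis) in each vessel group with each cell thinned to 2500 UMIs; bars are exact 95% binomial intervals, numbers in brackets are cells, and groups under 50 cells are left out. Over all days together, the highest share was 8.50% in the cluster led by Pcp4l1 and Tmsb10, and aerocyte-like cells were at 3.38%.

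Of the general capillary markers, none of 11 measured members met the size rule. Over all measured genes 1.63% met it as higher and 0.689% as lower, so none of 11 is near that share. The median of the list was −0.21, against −0.01 over all measured genes. Lpl was lower at all 4 days (−0.23 ± 0.13), and Aplnr was at −0.25 ± 0.34. Gpihbp1, which anchors lipoprotein lipase, was at 1360, 1912, 1382 and 1848 CPM in interferon-state cells, against 1270, 1822, 1490 and 1689 CPM in other cells. Plvap, which forms the diaphragms of endothelial caveolae, was at 2811, 3107, 2829 and 3089 CPM in interferon-state cells, against 2640, 3063, 2896 and 2702 CPM in other cells. None of 11 aerocyte markers met it either (median −0.20). Of 10 measured arterial markers Mgp, Cxcl12 and Esm1 were lower, and of 5 measured venous markers Car8 and Prss23 were higher. Car8, a carbonic anhydrase relative, was at 54.7, 122, 56.7 and 17.6 CPM in interferon-state cells, against 34.0, 37.0, 27.0 and 10.1 CPM in other cells. Venous-like cells were 7.42% of interferon-state cells and 3.9995% of other cells. Arterial-like cells were 3.48% of interferon-state cells and 4.88% of other cells. Whether these shares account for the marker differences was not tested.

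The same interferon genes were higher within single vessel groups. They were read in aerocyte-like, venous-like and arterial-like cells and in the clusters led by Cd74 and H2-DMa and by Pcp4l1 and Tmsb10. Only days with at least 10 interferon-state cells in the group were used. There the summed response genes were at 1.74 to 2.42 times the level of the other cells of the same group. Between 47 (venous-like, d22) and 58 of the 59 genes were above 0. Other groups were not read, although some held at least 10, such as that led by Hey1 and Lpl with 30 at d22. Those 59 genes were chosen as higher in these same cells, so the counts are a description. Aerocyte-like cells at d22 were at 8724 CPM in 63 interferon-state cells, against 4726 CPM in 480 other cells. Venous-like cells at d0 were at 11260 CPM in 22 interferon-state cells, against 5869 CPM in 120 other cells. Arterial-like cells at d0 were at 13401 CPM in 12 interferon-state cells, against 5537 CPM in 130 other cells. Among the groups read at d0, aerocyte-like cells had the lowest level in both sets of cells. When the interferon genes were kept in the clustering, 275 interferon-state cells (41.7%) gathered in 1 cluster of 384 cells led by Ifit3b and Ifit3, and the other 385 stayed spread over the remaining clusters.

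Each later day was set against d0 over interferon-state cells alone. Here a measured gene had 50 CPM or more at one of the days and 50 UMIs or more in total, and it passed when its ratio was at least 1.5 in either direction with an interval clear of 1. At d15, 627 of 3979 measured genes were higher (15.8%) and 463 lower (11.6%). At d22, 108 of 3688 were higher (2.93%) and 180 lower (4.88%), and at d36 607 of 3953 were higher (15.4%) and 486 lower (12.3%). With the cells thinned to 2500 UMIs the counts at d15 became 250 and 223, those at d36 239 and 238, and the higher count at d22 192. Many of these calls rest on few cells, since d15 and d36 had 66 and 65 interferon-state cells. In other cells, by the same rule, 161 of 3710 measured genes were higher and 91 lower at d15. At d22 13 of 3559 were higher and 64 lower, and at d36 155 of 3649 were higher and 130 lower. The part of cell number and depth in this contrast was not tested.

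Of the 50 response genes, 49 were measured at d15 and 6 of those were higher and 3 lower than at d0 (median ratio 1.13). At d22 1 was higher and 1 lower of 50 (median 1.05), and at d36 7 were higher and 2 lower of 50 (median 1.13). The median over all measured genes was 1.04 at d15, 1.00 at d22 and 1.02 at d36. Of all measured genes, 15.8% were higher and 11.6% lower at d15, 2.93% and 4.88% at d22, and 15.4% and 12.3% at d36. Stat2 at d15 (132 CPM, against 77.2 CPM at d0, ratio 1.70, 1.27 to 2.26) and Rsad2 at d36 (98.8 CPM, against 51.5 CPM at d0, ratio 1.92, 1.34 to 2.70) were among the higher ones. Ifi27l2a, an interferon-induced gene with a ratio of 1.23 ± 0.49 over other cells on the log2 scale, was lower at d15 (18.2 CPM from 9 UMIs in 3 cells, against 82.9 CPM at d0) and at d22 (52.6 CPM), with ratios of 0.220 and 0.635. In other cells they were 0.263 and 0.649. These genes were named after their values were seen, and with 1 pooled sample per day none of the differences has a replicate check.

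Of the MHC class II genes, Cd74 was past the size rule at d15 and d22, with 448 CPM at d15 and 2638 CPM at d22, against 1281 CPM at d0. The ratio was 0.349 (0.304 to 0.400) at d15 and 2.06 (1.98 to 2.14) at d22, and in other cells it was 0.322 and 2.38. H2-Ab1 (ratio 1.74) and H2-Eb1 (1.75) also passed as higher at d22, and had 1.87 and 2.05 in other cells. The lowest ratio at d22 among the named genes was that of Cyp1a1, an enzyme induced through the aryl hydrocarbon receptor, with 65.9 CPM at d22 against 888 CPM at d0 (ratio 0.0743). In other cells its ratio was 0.0450, so the difference was in both sets. Xpnpep2, an aminopeptidase, had the highest at d22, with 179 UMIs in 32 cells at d22 against 58 UMIs in 13 cells at d0 (ratio 2.74, 2.03 to 3.75), and 0.742 in other cells. At d15 the highest was Slc30a7, a zinc transporter of the Golgi, with 30 UMIs in 9 cells at d15 against 30 UMIs in 8 cells at d0 (ratio 5.67, 3.30 to 9.73). At d36 the highest was Cd320, the receptor for the vitamin B12 carrier, with 24 UMIs in 5 cells at d36 against 26 UMIs in 8 cells at d0 (ratio 5.67, 3.12 to 10.3). Usf1 and Tacc1 had no UMI in the 65 interferon-state cells of d36, against 141 UMIs in 37 cells and 149 UMIs in 50 cells at d0. The other named genes were Arl5a, Endog and Cpsf4 as higher and Elmo1, Usp1 and Gpatch8 as lower at d15. At d22 they were Abt1, Lsm12 and Cd247 as higher and Cytl1, Lbr and Sh3tc1 as lower, and at d36 Letmd1, Tlk2 and Glra1 as higher and Cytl1 and Rnf130 as lower.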

How the data were processed

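The deposited table holds unscaled counts, that is UMIs, for 28692 gene symbols (10850 of them without a UMI) in 9036 cells. Build mm10 and Cell Ranger 2.1.1 are listed in the submitters' processing notes. Neither the annotation release nor the authors' cell filter is given in the sources used here. The UMIs of a day summed to 23441491 (d0), 7014356 (d15), 28037309 (d22) and 6880079 (d36). Cells were assigned to a day by name, and 0 columns could not be assigned.

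UMIs were summed per day over interferon-state and over other cells and divided by each sum's total to give CPM. Log2 ratios carry a pseudocount of 5 CPM and are within a day, and their mean and SD are over 4 days, which are different conditions and not replicates. Ratios of 2 sums have exact binomial 95% intervals, which take UMIs as independent. Thinning drew UMIs without replacement with a fixed seed. The scripts were tested on simulated data.

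Clusters came from log-normalised counts with 2000 variable genes, 30 principal components, 15 neighbours and Leiden resolution 1.0 (Python 3.11.15 with pandas 2.3.3, scipy 1.17.1, numpy 2.4.6, scanpy 1.11.5, scikit-learn 1.9.0, igraph 0.11.9 and leidenalg 0.10.2). TMM factors came from edgeR 4.0.16, with no test. No doublets were removed. The endothelial filter kept cells with at least 300 genes, at least 2 pan-endothelial genes and under 2% of UMIs from markers of another cell type.

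The gate genes, gene lists and markers were chosen with earlier results of these data known. Genes named were the gate genes, the 20 highest and 10 lowest mean ratios past the size rule (the lowest among genes with a UMI in at least 10% of other cells), the 3 members of each list with the widest ratios, 4 per direction for each later day, and a few chosen after their values were seen, most of them list members. One gene that the rule names is not reported here. Alternatives were other gate thresholds, thinning, scaling, pseudocount, filters, clustering settings, each day left out and a shorter motif.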

Additional observations from a re-analysis of the deposited data

Results flagged for a closer look

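In 5 genes the interferon-state cells lay above the other cells at one day and below them at another, by more than 1.25-fold each way with both intervals clear of 1. None of these differences between days was tested, and each day is 1 pooled sample.

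Vcam1, an adhesion molecule of venous and activated endothelium, had a ratio of interferon-state over other cells of 3.17 (2.90 to 3.45) at d0 and 0.552 at d36. Its 747 UMIs at d0 lay in 30 interferon-state cells, and the 15 UMIs at d36 in 3.

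The other 4 genes are aerocyte markers, and all were above 1 at d22. Car4, a carbonic anhydrase of the capillary surface, had a ratio of 1.28 at d22 and 0.693 at d15. Ednrb, an endothelin receptor, had 1.48 at d22 and 0.639 at d36. Fibin had 1.32 at d22 and 0.708 at d15, and Chst1, a sulfotransferase, 1.31 at d22 and 0.548 at d15. Aerocyte-like cells were 22.3% of interferon-state cells and 16.3% of other cells at d22, but 7.58% of interferon-state cells and 12.6% of other cells at d15, and 9.23% of interferon-state cells and 15.7% of other cells at d36. Their part in these ratios was not tested.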

How the results depend on the processing

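No named gene past the size rule changed sign under the alternatives run, while some genes and list medians near 0 that had not passed did, such as the gene Vcam1 (log2 ratio −0.14 with thinned cells, 0.40 as reported). No paired analysis was possible because the cell names carry the day and not the library. The share of interferon-state cells followed the rule: at d0, d15, d22 and d36 it was 17.5%, 7.30%, 15.7% and 7.25% with at least 3 gate genes, 5.58%, 2.26%, 4.77% and 1.78% with at least 5, and 7.49%, 3.32%, 6.93% and 3.07% with 4 of 7 without Ifit3b. Thinned to 2500 UMIs it was 5.62% at d0 and 4.80% at d22, and thinned to 1200 it was 2.66%, 1.53%, 2.20% and 1.66%. Thinned to 2500 with at least 3 gate genes, chosen after seeing the data, it was 10.7% at d0, 7.74% at d15 and 8.79% at d36. Cells chosen by the other 7 genes gave log2 ratios of 3.11 for Ifit1, 3.56 for Ifit3, 3.38 for Ifit3b, 2.23 for Irf7 and Usp18, 1.88 for Oasl2 and 1.93 for Cmpk2. The count of higher genes, 59 as reported, lay between 41 and 78 under the other alternatives and was 112 with no filter on low values. The count of lower genes, 25 as reported, was 13 with at least 3 gate genes, 86 with at least 5, 62 thinned, 38 with a pseudocount of 1 CPM, 437 with no filter, 47 against other cells with 0 gate genes, 45 without the deepest cells, and 24 to 75 with each day left out (75 without d0 and 68 without d22). For vessel groups, thinning gave 3.38% for aerocyte-like and 6.49% for venous-like cells, and clustering with interferon genes 2.97% for arterial-like cells, where many interferon-state cells had a cluster of their own and another cluster took the arterial name. Against d0, thinned cells gave 250 higher and 223 lower genes at d15, 192 higher at d22, and 239 higher and 238 lower at d36. At d22 at least 3 gate genes gave 37 higher and 109 lower, and at least 5 gave 200 higher. The motif without its last base was in 9.52% of lower genes, 9.29% of other measured genes and 9.76% of all genes. The cause of these moves was not tested. Depth limits the d15 and d36 values most, with 493795 and 455553 UMIs in interferon-state cells.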
